A study of Mus musculus with 12 samples.

Results

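The genes of insulin and insulin-like growth factor (IGF) signalling were followed in isolated mouse islets across 4 genotypes. The set was a list of 10 genes: the ligands Igf1 and Igf2, the receptors Insr, Igf1r and Igf2r, the adaptors Irs1 and Irs2, the phosphoinositide 3-kinase (PI3K) subunit gene Pik3r1, the kinase gene Akt2 and the transcription factor gene Foxo1. Members were found through the RefSeq accession that the arrays give for each probe. Of the 10 genes 9 had at least 1 probe, which gave 20 of the 41174 probes of the array, and Irs2 was not analysed here.

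In this pathway insulin and the IGFs bind receptor tyrosine kinases, which phosphorylate adaptor proteins of the IRS family. The adaptors recruit PI3K, the lipid product of PI3K activates AKT, and AKT phosphorylates FOXO1 and keeps it out of the nucleus. Beta cells both secrete insulin and carry its receptor, and the pathway is known for its part in beta cell growth and survival.

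Islets came from female mice on a C57BL/6 x Sv129 background fed chow. WT mice carried neither mutation, PPARγ2KO mice lacked the γ2 isoform of the nuclear receptor PPARγ, ob/ob mice lacked leptin, and POKO mice lacked both. Per the labels the mice were 4 weeks old. The text of the study names a slightly older age. Each genotype had 3 one-colour arrays, each with RNA from the hand-picked islets of several mice, pooled and kept overnight in culture, so the spread between arrays is that between pools. The null alleles were present in the whole animal, and mRNA of whole islets cannot tell fewer cells of a type from less RNA per cell. A slide held the 4 arrays of 1 replicate number, and each genotype always lay at the same position on the slide, so position and genotype cannot be told apart.

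Values are log2 of the quantile-normalized signal, differences are log2 fold changes, and p-values are from limma with Benjamini-Hochberg adjustment over all 41174 probes. A probe was called at an adjusted p of at most 0.05. The median signal of an array before normalization was 20.9 to 27.0 in WT, 23.0 to 30.4 in PPARγ2KO, 30.7 to 40.6 in ob/ob and 31.6 to 33.6 in POKO. The probe of Pparg read 8.85 to 8.98 in WT and 8.54 to 9.77 in ob/ob, against 6.60 to 7.44 in PPARγ2KO and 6.41 to 7.14 in POKO, with no overlap between carriers and null animals, although whether it lies in the deleted part is not known here. Lep never rose well above background and checks nothing. Summed signal of the islet endocrine markers (in units of 1000) was 917 to 1340 in WT, 1119 to 1304 in PPARγ2KO, 1357 to 1495 in ob/ob and 1150 to 1257 in POKO, and acinar markers were high on every array, at 2153 to 2541. WT replicate 3 had the highest endocrine sum of the WT arrays, at 1340 against 917 and 982.

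In ob/ob vs. WT islets Foxo1 rose on both of its probes, and 1 of 3 Igf1r probes and 1 of 4 Pik3r1 probes rose with it. Igf1 read lower in ob/ob than in WT on both probes without passing the threshold in that comparison, and passed it when both leptin-deficient genotypes were set against both lean ones. Igf2, Insr, Igf2r, Irs1 and Akt2 had no called probe in any comparison. When POKO was compared with WT or with ob/ob, or PPARγ2KO with WT, no member probe was called.

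Of the 20 member probes 4 were called in ob/ob vs. WT, all higher, beside 11.1% of all probes (4.92% higher and 6.14% lower). With 1 probe per gene, the brightest, 1 of 9 members was called higher and 0 lower, beside 6.48% and 7.13% of 17305 genes, so the share of members was near that of the array. The median log2 fold change was 0.28 over the 20 member probes and -0.08 over all probes. At an unadjusted p under 0.05 there were 10 of 20 member probes, beside 31.1% of all probes. None of the 4 called probes reached an absolute log2 fold change of 1, which 5.47% of all probes did together with the adjusted p.

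**Figure D1:**
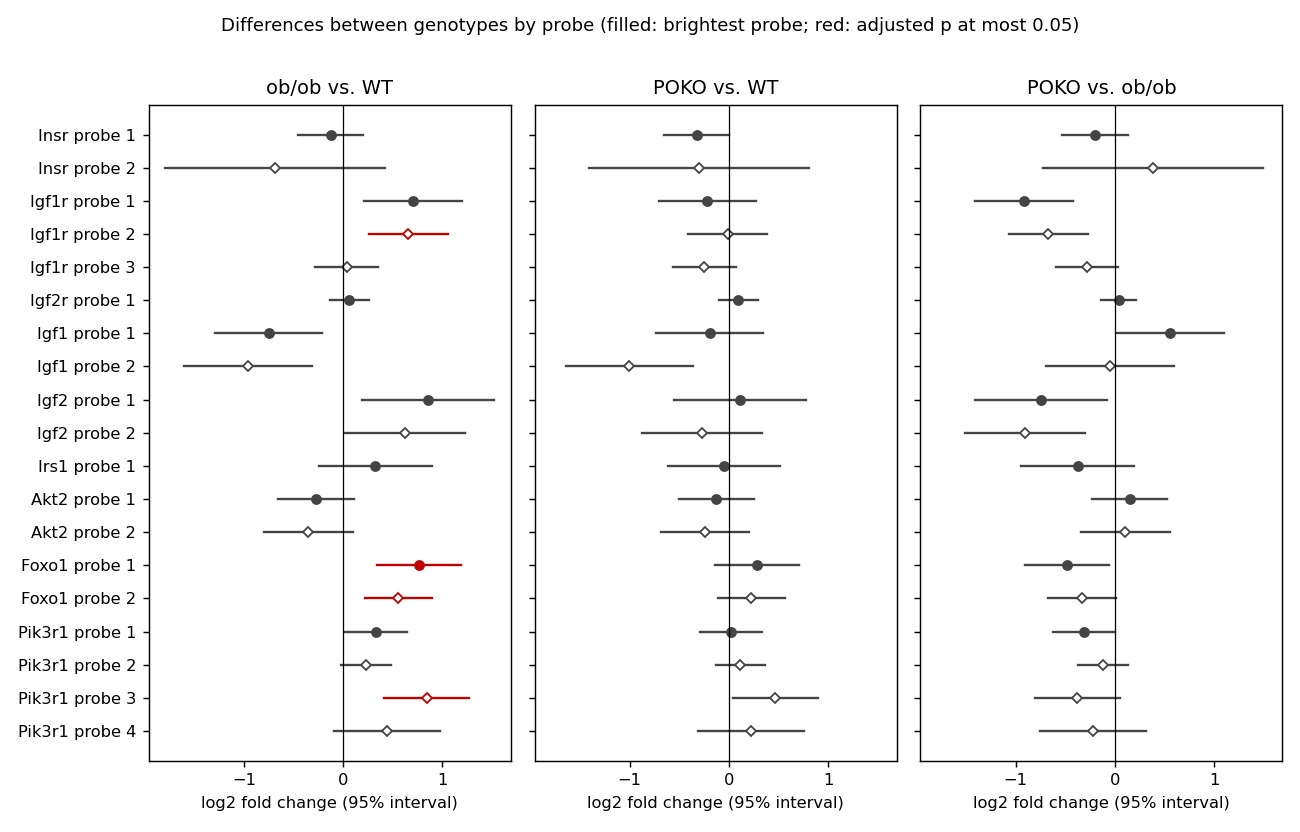
Log2 fold change (points) with its 95% interval (lines) for 19 probes of the 9 measured genes for ob/ob against WT, POKO against WT and POKO against ob/ob, with the brightest probe of a gene as probe 1 and called probes in red. The 4 called probes, of Igf1r, Foxo1 and Pik3r1, lie between 0.56 and 0.84 in ob/ob vs. WT, and no probe is red in the other panels. The dim second Irs1 probe is left out.

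Foxo1, Igf1r and Igf1 each had a called probe in their brightest pair, while Pik3r1 was called on its probe 3 alone. The 250 bases before the annotated starts of Foxo1, Igf1r and Igf1 are given here from RefSeq (build GRCm38.p6, 5′ to 3′ on the strand of the gene). They are shown because a PPARγ2-null genotype and a FOXO gene are at issue and both factors have known DNA motifs. Capitals mark AGGTCA, which is a single unit of the PPAR motif and not the whole of it. It was read on both strands, so that its reverse complement TGACCT is also marked.
Foxo1, chr3:52268087-52268336, + strand: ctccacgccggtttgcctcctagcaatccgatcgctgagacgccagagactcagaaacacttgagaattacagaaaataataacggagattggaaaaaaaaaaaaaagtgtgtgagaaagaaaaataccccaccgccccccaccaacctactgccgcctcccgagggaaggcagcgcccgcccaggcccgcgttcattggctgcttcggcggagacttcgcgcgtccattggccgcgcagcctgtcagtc
Igf1r, chr7:67952007-67952256, + strand: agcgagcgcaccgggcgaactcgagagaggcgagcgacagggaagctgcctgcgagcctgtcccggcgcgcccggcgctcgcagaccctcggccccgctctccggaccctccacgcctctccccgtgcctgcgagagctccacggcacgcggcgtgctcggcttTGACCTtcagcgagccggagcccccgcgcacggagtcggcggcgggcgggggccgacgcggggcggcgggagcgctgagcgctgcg
Igf1, chr10:87860861-87861110, + strand: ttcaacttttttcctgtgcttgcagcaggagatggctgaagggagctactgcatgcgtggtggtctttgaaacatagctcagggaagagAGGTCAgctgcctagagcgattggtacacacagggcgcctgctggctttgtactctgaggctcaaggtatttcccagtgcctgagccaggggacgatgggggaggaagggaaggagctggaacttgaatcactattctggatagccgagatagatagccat
AGGTCA was present once in the Igf1r window, 81 bases before the start, and once in the Igf1 window, 156 bases before it. It was not in the Foxo1 window. Igf2r and Igf2, which had no called probe, also held it, 6 bases before the Igf2r start and 229 bases before 1 of the Igf2 starts. The windows of Irs1, Irs2, Akt2 and Pik3r1 did not hold it. Of the 32851 mouse windows of 300 bases, 16.26% held it. The core FOXO motif GTAAACA, which 3.65% of windows held on either strand, was in none of the windows of the 9 listed genes other than Insr, for which no window was searched. GC content of the 300 bases was 76.0% for Igf1r, 61.3% for Foxo1 and 52.3% for Igf1. A match is a description of the letters and not of a bound site.

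Igf1 encodes a secreted growth factor that acts through the IGF1 receptor. Its brightest probe read 10.39, 10.75 and 10.23 on WT replicates 1 to 3 and 11.01, 11.19 and 10.25 in PPARγ2KO. It read 9.64, 9.72 and 9.76 in ob/ob and 9.99, 10.41 and 10.39 in POKO. All 3 ob/ob arrays lay below every other array, POKO overlapped WT, and PPARγ2KO replicate 3 read with WT rather than with the other two.

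Igf1 was 0.75 lower on the log2 scale in ob/ob than in WT (95% interval -1.29 to -0.21), which missed the threshold (adjusted p = 0.0707, limma). Both Igf1 probes passed it with dim probes filtered out (adjusted p = 0.0460 and 0.0350), with array weights (adjusted p = 0.0126 and 0.00902) and without PPARγ2KO replicate 3 (adjusted p = 0.0298 and 0.0258). Against PPARγ2KO the ob/ob arrays gave -1.11 (adjusted p = 0.0904, limma). POKO vs. WT gave -0.19, with an interval of -0.73 to 0.35. These comparisons share their control arrays and are not independent of each other.

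The second, much dimmer Igf1 probe read 5.10, 5.29 and 5.25 in WT and 5.93, 5.89 and 4.86 in PPARγ2KO. It read 4.57, 4.04 and 4.16 in ob/ob and 3.92, 4.52 and 4.20 in POKO. On this probe both leptin-deficient genotypes lay below every lean array, which for POKO was not so on the brighter probe. POKO vs. WT was -1.0 here (adjusted p = 0.139, limma) against -0.19 on the brighter probe.

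When the 6 leptin-deficient arrays (ob/ob and POKO) were set against the 6 lean arrays (WT and PPARγ2KO), 2 of 20 member probes were called, both of Igf1 and both lower, beside 9.04% of all probes (4.23% higher and 4.81% lower). At an unadjusted p under 0.05 there were 5, beside 28.2% of all probes, and 1 of the called probes also reached an absolute log2 fold change of 1, as 2.85% of all probes did. The brighter probe fell by 0.65 (95% interval -1.03 to -0.27, adjusted p = 0.0458, limma). The second fell by 1.15 (95% interval -1.61 to -0.70, adjusted p = 0.0202, limma), and this size rests on the background correction, since normexp correction gave -0.14 with the call kept. The call of the brighter probe was lost without any of WT replicates 1 or 2, PPARγ2KO replicates 1 or 2, any ob/ob array or any POKO array (largest adjusted p = 0.106) and under normexp correction (adjusted p = 0.0552), and that of the second probe without WT replicate 2 or POKO replicate 1. The fall in Igf1 was seen on each slide, at -0.88, -0.90 and -0.17 for the brighter probe and at -1.27, -1.31 and -0.87 for the second.

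Igf2, the fetal growth factor gene of the family, had a brightest probe at 6.13, 5.91 and 6.39 in WT, 5.84, 6.77 and 7.02 in PPARγ2KO, 6.78, 7.21 and 7.01 in ob/ob and 6.06, 6.62 and 6.10 in POKO. The ob/ob arrays lay above all WT and POKO arrays, while the PPARγ2KO arrays ran from below WT to the ob/ob level. The difference from WT in ob/ob was 0.86 (95% interval 0.19 to 1.52, adjusted p = 0.0856, limma). It shrank to 0.29 under normexp correction, and it passed the threshold with array weights (adjusted p = 0.0145) and without PPARγ2KO replicate 1 (adjusted p = 0.0382). The second probe gave 0.63 (adjusted p = 0.149, limma). POKO vs. ob/ob was -0.74 and -0.90 on the respective probes, with an adjusted p of 0.531 for each by limma.

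**Figure D2:**
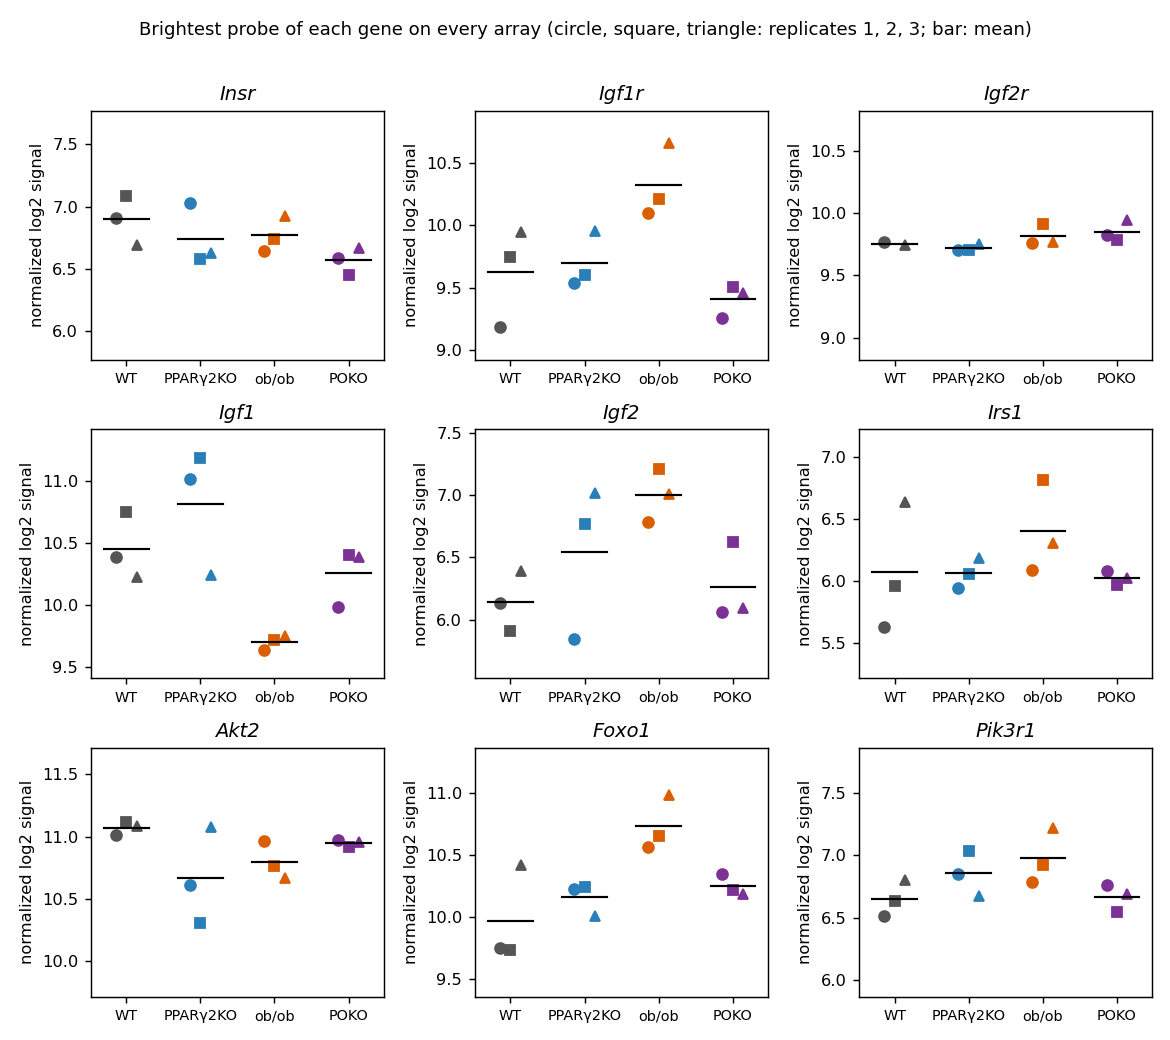
Normalized log2 signal of the brightest probe of each measured gene on all 12 arrays, by genotype, with a bar at the mean of a genotype and each vertical axis spanning about 2 log2 units. The 3 ob/ob arrays are the highest of all for Igf1r and Foxo1 and the lowest of all for Igf1, while Igf2r, without the outlier spot of WT replicate 2, stays between 9.70 and 9.94.

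Insr encodes the insulin receptor. Its brightest probe read 6.91, 7.08 and 6.69 in WT, 7.03, 6.58 and 6.63 in PPARγ2KO, 6.64, 6.74 and 6.92 in ob/ob and 6.59, 6.45 and 6.67 in POKO. All 3 POKO arrays lay below the lowest WT array, and the other genotypes overlapped WT. The largest difference was that of POKO vs. WT, at -0.33 with a 95% interval of -0.66 to 0.00 and an adjusted p of 0.312 by limma. The second Insr probe was well above background on 6 arrays only and carries little information.

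Igf1r encodes the receptor for IGF1 and, with lower affinity, insulin. Its brightest probe read 9.18, 9.74 and 9.94 in WT, 9.54, 9.60 and 9.96 in PPARγ2KO, 10.10, 10.21 and 10.66 in ob/ob and 9.25, 9.50 and 9.46 in POKO. The second probe, of nearly the same brightness, read 9.17, 9.65 and 9.68 in WT, 9.50, 9.98 and 9.90 in PPARγ2KO, 9.94, 10.15 and 10.37 in ob/ob and 9.45, 9.46 and 9.53 in POKO. On both probes the ob/ob arrays lay above every WT and POKO array, and POKO lay within the WT range. The pair had a Pearson r of 0.91 over the 12 arrays.

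The ob/ob minus WT difference of Igf1r was 0.66 on the second probe (95% interval 0.26 to 1.06, adjusted p = 0.0460, limma) and 0.70 on the brightest (95% interval 0.21 to 1.19, adjusted p = 0.0663, limma). With the slide as a block the brightest probe also passed (adjusted p = 0.0295, limma). Within slides 1 to 3 the difference was 0.92, 0.47 and 0.71 on the brightest probe and 0.77, 0.50 and 0.70 on the second. The remaining, dimmer probe gave 0.04 (95% interval -0.28 to 0.35), and its r with the others was 0.31 and 0.22, so the probes of Igf1r did not give 1 answer. The call of the second probe was lost without WT replicates 1 or 2, PPARγ2KO replicate 3, ob/ob replicates 2 or 3 or any POKO array (largest adjusted p = 0.136), under a shift to the 75th percentile (adjusted p = 0.0625) and in a fit of the compared genotypes alone (adjusted p = 0.133).

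The Igf1r rise was not seen in POKO, where the difference from WT was -0.22 and -0.02 on the brighter probes, with 95% intervals of -0.71 to 0.27 and -0.41 to 0.38. POKO vs. ob/ob was -0.92 on the brightest probe (95% interval -1.41 to -0.43), negative on each slide at -0.85, -0.71 and -1.20. Its unadjusted p was 0.00213, and its adjusted p was 0.531 by limma, in a comparison in which 0.00486% of all probes were called. Among member probes 0 were called there and 6 had an unadjusted p under 0.05, beside 9.28% of all probes. The interaction, which is the effect of PPARγ2 loss in leptin-deficient islets minus that in lean islets, was -1.0 and -0.97 on the brighter Igf1r probes, with adjusted p values of 0.274 and 0.257 by limma.

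Igf2r encodes a receptor that binds IGF2 and leads it to the lysosome. It read 9.77 and 9.74 in WT, 9.71, 9.70 and 9.75 in PPARγ2KO, 9.76, 9.92 and 9.77 in ob/ob and 9.82, 9.79 and 9.94 in POKO, and the spot of WT replicate 2 was left out as an outlier. Without that spot the group means were no more than 0.13 apart. The ob/ob minus WT difference was 0.06 (95% interval -0.14 to 0.26), and its sign turned under a shift to the 75th percentile, at -0.05. With outlier spots kept it was 0.37, not called (adjusted p = 0.278, limma).

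**Figure D3:**
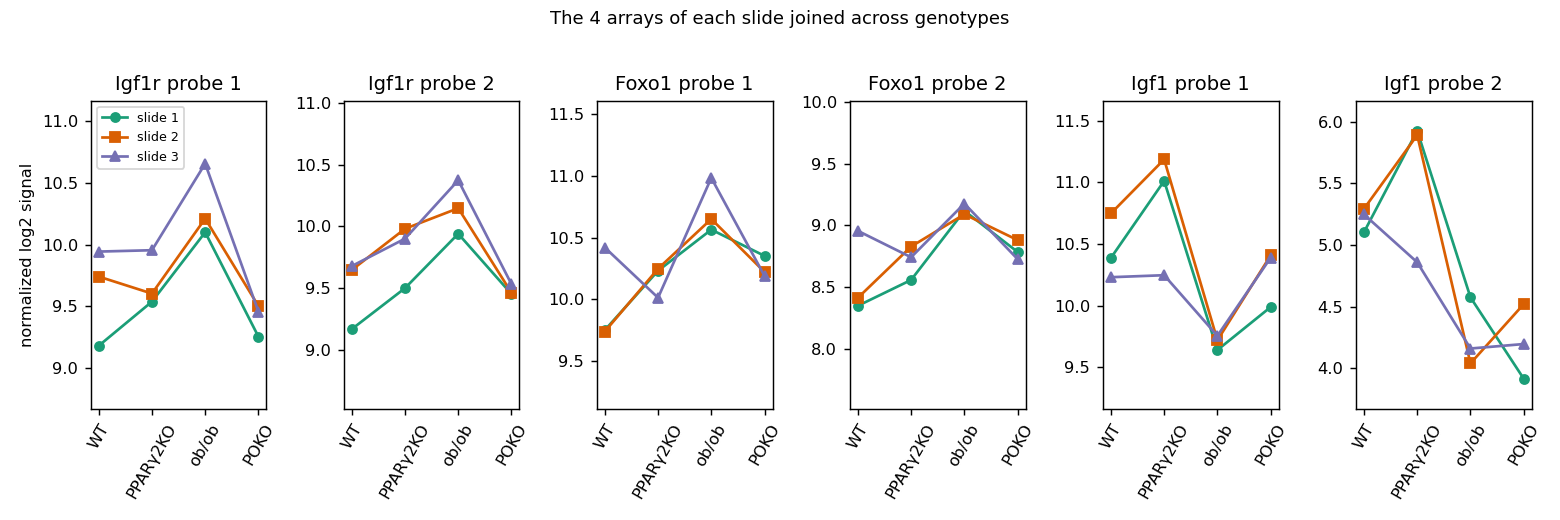
Normalized log2 signal of the brightest pair of probes of Igf1r, Foxo1 and Igf1, with a line for each slide joining its 4 arrays across the genotypes. Igf1r peaks in ob/ob on all 3 slides, as does Foxo1, while Igf1 is lowest in ob/ob on all 3 slides for its brightest probe and the second probe is low in both leptin-deficient genotypes.

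Irs1 encodes an adaptor that links the receptors to PI3K. Its brightest probe read 5.63, 5.96 and 6.64 in WT, 5.95, 6.05 and 6.19 in PPARγ2KO, 6.09, 6.81 and 6.30 in ob/ob and 6.08, 5.97 and 6.02 in POKO. The WT arrays spanned nearly the whole range, and all genotypes overlapped. The ob/ob minus WT difference of 0.32 had a 95% interval of -0.24 to 0.89. The second Irs1 probe was well above background on 2 arrays, 1 of WT and 1 of PPARγ2KO, and gave no usable level in ob/ob or POKO.

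Pik3r1 encodes regulatory subunits of PI3K and had 4 probes. The called one, probe 3 in order of brightness, read 5.49, 4.99 and 5.37 in WT, 5.73, 5.31 and 5.93 in PPARγ2KO, 6.28, 6.07 and 6.04 in ob/ob and 5.98, 5.74 and 5.54 in POKO. Every ob/ob and every POKO array lay above every WT array, and PPARγ2KO lay between them with overlap. The difference from WT was 0.84 in ob/ob (95% interval 0.42 to 1.27, adjusted p = 0.0315, limma) and 0.47 in POKO (adjusted p = 0.266, limma).

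The size of that Pik3r1 difference rests on the background correction, since normexp correction gave 0.20 in place of 0.84, with the call kept. The call was lost without WT replicates 1 or 2, any ob/ob array or POKO replicate 2 (largest adjusted p = 0.109) and in a fit of the compared genotypes alone (adjusted p = 0.0802). The brightest Pik3r1 probe, at 6.51, 6.64 and 6.80 in WT and 6.79, 6.93 and 7.22 in ob/ob, gave 0.33 (adjusted p = 0.146, limma). The other two gave 0.23 and 0.44. The first and second probes followed each other over the 12 arrays (r = 0.75), as did the called probe and the dimmest (r = 0.76), and the pairs did not follow each other (r from -0.18 to 0.29). Pik3r1 makes several transcripts, and which of them each probe reads was not worked out here.

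Akt2 encodes the AKT isoform best known for glucose handling in insulin-responsive tissue. Its brightest probe read 11.01, 11.12 and 11.09 in WT, 10.61, 10.31 and 11.08 in PPARγ2KO, 10.96, 10.76 and 10.67 in ob/ob and 10.97, 10.91 and 10.95 in POKO. All ob/ob and POKO arrays lay below all WT arrays, while PPARγ2KO reached from the lowest value of all into the WT range. The ob/ob minus WT difference was -0.28 and was not called. PPARγ2KO vs. WT gave -0.41 on this probe and -0.63 on the second, with adjusted p values of 0.514 and 0.476 by limma. On slide 3 the PPARγ2KO array differed from WT by only -0.01 and -0.05, so these differences were those of the other two slides. In that comparison 0 of all probes were called (0%), and 2 member probes, both of Akt2, had an unadjusted p under 0.05, beside 9.37% of all probes.

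Foxo1 encodes the transcription factor that AKT restrains, a regulator of beta cell identity and stress response. Its brightest probe read 9.75, 9.74 and 10.42 in WT, 10.23, 10.25 and 10.01 in PPARγ2KO, 10.56, 10.65 and 10.98 in ob/ob and 10.35, 10.22 and 10.19 in POKO. The second probe read 8.35, 8.41 and 8.96 in WT, 8.56, 8.83 and 8.74 in PPARγ2KO, 9.12, 9.09 and 9.18 in ob/ob and 8.78, 8.88 and 8.73 in POKO. The ob/ob arrays were the highest of all 12 on both probes. WT replicate 3 read well above the other WT arrays and above all PPARγ2KO and POKO arrays on both.

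Foxo1 rose in ob/ob vs. WT by 0.76 on the brightest probe (95% interval 0.34 to 1.19, adjusted p = 0.0375, limma) and by 0.56 on the second (95% interval 0.22 to 0.90, adjusted p = 0.0470, limma). The difference was positive on each slide, at 0.81, 0.91 and 0.56 for the brightest probe and 0.77, 0.68 and 0.22 for the second. Without WT replicate 3 it was 0.99 on the brightest probe (adjusted p = 0.00627, limma), and without WT replicates 1 or 2, ob/ob replicates 2 or 3 or any POKO array the call was lost, with a largest adjusted p of 0.123. It was also lost under a shift to the 75th percentile (adjusted p = 0.0625) and in a fit of the compared genotypes alone (adjusted p = 0.143). Of the fits without 1 array, the one without WT replicate 3 alone kept the call of the second probe, which was also lost under the 75th percentile shift (adjusted p = 0.0625), under normexp correction (adjusted p = 0.0554) and in a fit of the compared genotypes alone (adjusted p = 0.155). With the slide as a block the brightest probe kept its call (adjusted p = 0.0466, limma) and the second lost it (adjusted p = 0.0513, limma).

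In POKO islets Foxo1 was 0.28 above WT on the brightest probe (95% interval -0.14 to 0.71) and 0.48 below ob/ob (95% interval -0.90 to -0.06, adjusted p = 0.531, limma). PPARγ2KO vs. WT gave 0.19. All 3 POKO arrays lay below all 3 ob/ob arrays and within the range of WT. The interaction was -0.67 (adjusted p = 0.317, limma), and the leptin-deficient minus lean difference was 0.43 (adjusted p = 0.0735, limma).

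On the brightest probe of each gene the order of the genotype means was thus ob/ob first for Igf1r, Igf2, Irs1, Foxo1 and Pik3r1, and last for Igf1. For Igf1r the means ran from 10.32 ± 0.29 in ob/ob (SD, n = 3) through 9.70 ± 0.22 in PPARγ2KO and 9.62 ± 0.40 in WT to 9.41 ± 0.13 in POKO. WT overlapped PPARγ2KO and POKO on this probe, but every POKO array lay below every PPARγ2KO array. That difference was -0.29 and was not called (adjusted p = 0.638, limma). For Foxo1 the means were 10.73 ± 0.22 in ob/ob, 10.25 ± 0.09 in POKO, 10.16 ± 0.13 in PPARγ2KO and 9.97 ± 0.39 in WT (SD, n = 3), with overlap among all but ob/ob. For Igf1 they were 10.81 ± 0.50 in PPARγ2KO, 10.46 ± 0.27 in WT, 10.26 ± 0.24 in POKO and 9.70 ± 0.06 in ob/ob (SD, n = 3). Over the 12 arrays the brightest probes of Foxo1 and Pik3r1 had a Pearson r of 0.79, Igf1r and Foxo1 0.72, Igf1r and Igf2 0.71, Igf1 and Foxo1 -0.60, and Akt2 and Pik3r1 -0.71. These values describe 12 arrays that share genotypes, slides and 1 normalization.

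The remaining comparisons gave no call among the members. In POKO vs. WT 0 of 20 member probes were called and 2 had an unadjusted p under 0.05, beside 0.194% and 16.4% of all probes. In POKO vs. PPARγ2KO and in ob/ob vs. PPARγ2KO 0 were called, beside 0.00971% and 0.00486% of all probes, and 3 and 6 had an unadjusted p under 0.05, beside 11.1% and 19.3% of all probes. In the 6 PPARγ2-null against the 6 PPARγ2-carrying arrays and in the interaction 0 of all probes were called (0%), and 2 and 9 member probes had an unadjusted p under 0.05, beside 3.76% and 13.9% of all probes.

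Among the other genes of the pathway, 86 of the 89 listed had a probe. In ob/ob vs. WT 7 of the 86 were called higher and 10 lower, beside 6.48% and 7.13% of all genes measured, and 69 did not pass. Their median log2 fold change was 0.05, against -0.06 over all genes. In leptin-deficient vs. lean islets 7 were called higher and 9 lower, beside 5.64% and 5.37% of all genes measured. In the other comparisons 0 were called, with 22 at an unadjusted p under 0.05 in POKO vs. WT, where 16.4% of all probes had one. Without WT replicates 1 or 2 or ob/ob replicate 3 the 17 calls of ob/ob vs. WT fell to 0, without ob/ob replicate 2 to 1, and without WT replicate 3 they rose to 32.

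**Figure D4:**
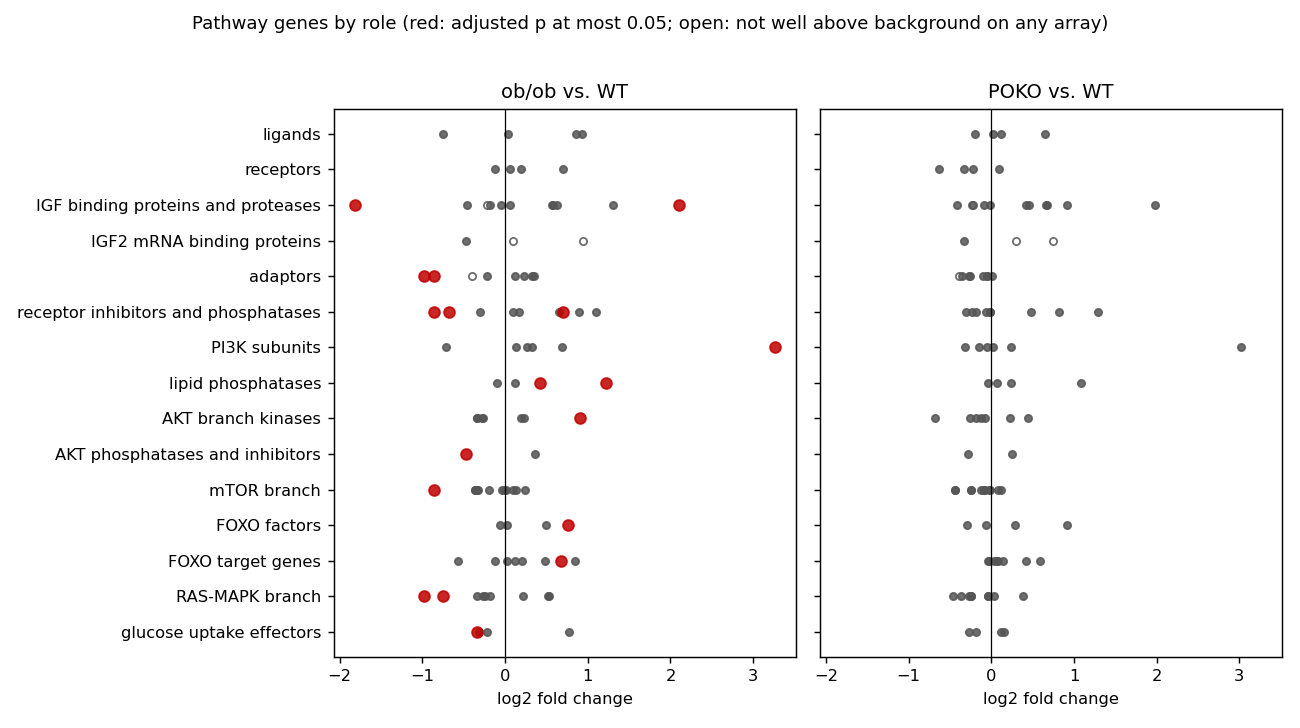
Log2 fold change of each measured pathway gene (points, members included) for ob/ob against WT (left) and POKO against WT (right), in rows by role, with called genes in red. Red points lie on both sides of 0 in the left panel, from -1.82 for Stc2 to 3.27 for Pik3cd, and the right panel has none.

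Of the ligand genes beside the members, Ins1 read 17.07, 17.39 and 18.38 in WT and 18.42, 18.62 and 18.58 in ob/ob, a difference of 0.93 (adjusted p = 0.0614, limma). WT replicate 3 lay well above the other WT arrays for this beta cell gene, as it lay above them for Foxo1. Ins2 was at the top of the scale on every array, 18.90 to 18.95, values set by the top ranks of the quantile normalization. Insrr, an orphan receptor of the family, gave 0.19 (adjusted p = 0.804, limma).

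Of the binding proteins and proteases that hold or release IGFs, 1 of 11 was called higher and 1 lower in ob/ob vs. WT. Beside them stand 6.48% and 7.13% of all genes, and so few calls in lists this small do not set a role apart. Igfbp3, a carrier of circulating IGFs, read 8.32, 8.16 and 8.77 in WT, 8.58, 8.74 and 9.90 in PPARγ2KO, 10.63, 10.19 and 10.73 in ob/ob and 10.48, 10.58 and 10.13 in POKO. Every leptin-deficient array lay above every lean array. The difference was 2.10 in ob/ob vs. WT (adjusted p = 0.0175, limma), 1.98 in POKO vs. WT (adjusted p = 0.0607, limma) and 1.71 in leptin-deficient vs. lean islets (adjusted p = 0.0134, limma). Stc2, whose protein inhibits an IGF-releasing protease, fell by 1.82 in ob/ob vs. WT (adjusted p = 0.0397, limma), with WT arrays at 11.39, 11.20 and 9.64 and ob/ob arrays at 9.51, 8.74 and 8.52.

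Of 8 measured adaptors 2 were called in ob/ob vs. WT, both lower, beside 7.13% of all genes. They were Gab1, a docking protein, at -0.98 (adjusted p = 0.0319, limma) and Irs4, a relative of Irs1, at -0.86 (adjusted p = 0.0371, limma). The second Irs4 probe gave -0.70 and was not called (adjusted p = 0.287, limma). Shc1, Grb2, Sos1 and Sos2, which lead from the receptor to RAS, gave 0.12, 0.23, -0.22 and 0.35, none called, and Irs3 never reached well above background. Of 9 genes that restrain the receptors, 1 rose and 2 fell, beside 6.48% and 7.13% of all genes. Ptpn1, a phosphatase of the insulin receptor, rose by 0.70 (adjusted p = 0.0336, limma), and its second probe by 0.88 (adjusted p = 0.0437, limma). Grb10, an inhibitory adaptor, fell by 0.68 (adjusted p = 0.0236, limma), and Enpp1, an inhibitor of the insulin receptor, fell by 0.86 (adjusted p = 0.0311, limma). Socs3, an inhibitor induced by cytokines, rose by 0.86 in leptin-deficient vs. lean islets (adjusted p = 0.0329, limma).

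Among 6 PI3K subunit genes 1 was called higher, beside 6.48% of all genes. It was Pik3cd, the catalytic subunit typical of leukocytes, at 3.99, 4.77 and 4.63 in WT, 4.55, 6.71 and 4.85 in PPARγ2KO, 7.57, 7.37 and 8.25 in ob/ob and 8.20, 6.64 and 7.59 in POKO, a difference of 3.27 in ob/ob vs. WT (adjusted p = 0.0215, limma). Inpp5d, a lipid phosphatase gene of blood cells, rose by 1.23 (adjusted p = 0.0480, limma), in a fit without the outlier spot of POKO replicate 2. Pik3cd moved with markers of lymphocytes: 6 of 8 T cell markers and 3 of 6 B cell markers rose in ob/ob vs. WT, beside 6.48% of all genes. Summed T cell signal (in units of 1000) was 0.437 to 0.464 in WT, 0.271 to 1.46 in PPARγ2KO, 1.00 to 2.77 in ob/ob and 0.611 to 1.89 in POKO. The B cell sum was 0.0951 to 0.115 in WT, 0.118 to 2.74 in PPARγ2KO, 1.23 to 3.65 in ob/ob and 1.12 to 3.32 in POKO, with Pax5 never well above background. Their part in the result was not tested.

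Of the AKT phosphatases and inhibitors Phlpp2 fell by 0.47 in ob/ob vs. WT (adjusted p = 0.0371, limma). Its second probe gave -0.69 and was not called (adjusted p = 0.104, limma). In the mTOR branch 1 of 12 was called lower by its brightest probe, beside 7.13% of all genes. It was Eif4ebp1, a repressor of translation, which fell by 0.86 (adjusted p = 0.0243, limma), while its second probe gave -0.77 and was not called (adjusted p = 0.0940, limma). The probes of Tsc1, which encodes a restraint on mTOR, disagreed: the brightest gave 0.01, and the other two fell by 0.76 (adjusted p = 0.0329, limma) and 0.95 (adjusted p = 0.0479, limma). In leptin-deficient vs. lean islets Rps6kb1, the S6 kinase gene, fell by 0.42 (adjusted p = 0.0197, limma). Its other probes gave -0.23, -0.03 and -0.11 in that comparison and -0.19, -0.10 and 0.26 in ob/ob vs. WT, none called.

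Foxo1 was the only called gene of the 4 FOXO factors in ob/ob vs. WT, where Foxo3, Foxo4 and Foxo6 gave -0.06, 0.02 and 0.49. Of 9 measured FOXO target genes 1 was called higher by its brightest probe, beside 6.48% of all genes. It was Cdkn1b, which encodes the cell cycle inhibitor p27. Cdkn1b rose by 0.67 (adjusted p = 0.0431, limma), from 8.52, 8.69 and 8.92 in WT to 9.06, 9.36 and 9.73 in ob/ob, and read 8.70, 8.59 and 8.74 in POKO. The second Cdkn1b probe gave 0.47 in ob/ob vs. WT and was not called (adjusted p = 0.150, limma). Bcl2l11, a proapoptotic target, gave 0.20 on its brightest probe, and its second probe fell by 1.06 (adjusted p = 0.0236, limma). In the RAS-MAPK branch 2 of 9 fell in ob/ob vs. WT, beside 7.13% of all genes. Hras fell by 0.76 (adjusted p = 0.0250, limma) and Nras by 0.98 (adjusted p = 0.0307, limma), and all 3 Nras probes were called. Dimmer probes of Braf and the protease gene Ide were also called lower, although the brightest probe of each was not. Map2k2, a kinase of the same branch, fell by 0.31 in leptin-deficient vs. lean islets (adjusted p = 0.0209, limma).

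Markers of other cell types also moved between ob/ob and WT, where 6.48% of all genes were called higher and 7.13% lower. Endothelial markers rose in 3 of 6, with sums in the same units of 1.67 to 4.32 in WT and 5.74 to 8.02 in ob/ob. Duct markers fell in 3 of 6, with sums of 81.4 to 93.9 in WT and 49.1 to 73.9 in ob/ob. Of the islet endocrine markers 1 of 10 rose and of the acinar markers 0 of 11 were called, as were 0 of 5 macrophage and 0 of 7 fibroblast markers. Of 6 adipocyte markers 1 rose, with Adipoq and Lep never well above background, and of 4 glial markers 1 rose and 1 fell. The endocrine sums of ob/ob lay above those of all other genotypes, as did the signals of both Foxo1 probes and of the brightest Igf1r probe. On the other Igf1r probes ob/ob overlapped PPARγ2KO. The part of cell composition in the differences of the members was not tested.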

How the data were processed

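Before deposit, per the file headers and the study's methods, the authors scanned 12 one-colour Agilent 4x44K arrays and took background-subtracted spot intensities with Agilent Feature Extraction 10.1.1.1. The authors also deposited a table of log2 quantile-normalized values, used here as an alternative. Here the deposited processed intensities were quantile-normalized and put on the log2 scale in R 4.3.3, after 1639 control spots per array and 919 outlier spots in all were left out. Spots were averaged into 41174 probes, and 0 spots were saturated. Depth does not apply to arrays, and the 3 arrays per genotype limit the precision. Samples were grouped by the genotype in their labels. A limma 3.58.1 fit with genotype as the only factor over all 12 arrays gave 9 comparisons. Probes were named by RefSeq accession, which gave 25097 probes a symbol, and a gene is represented by its brightest probe. Members and gene lists were chosen with earlier results of these data known. Named are all members, the called pathway genes (at most 15 by adjusted p, with Stc2, Inpp5d, Phlpp2 and Cdkn1b added after their values were seen, as were the FOXO relatives, Tsc1, Bcl2l11, Braf and Ide), and the ligands, receptors and adaptors. Some results of pathway genes are not reported here, and counts over the whole pathway include them. The fit was tested on simulated data. Alternatives were the 75th percentile shift, normexp on the median and background signals (offset 50), a filter on dim probes, outlier spots kept, only the groups compared, the slide as a block, array weights, the deposited log2 values, a fold criterion, the mean of a gene's probes, and each array left out.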

Additional observations from a re-analysis of the deposited data

How the results depend on the processing

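The count of member probes called in ob/ob vs. WT, 4 in the report, was 1 with a shift to the 75th percentile, 7 with dim probes filtered out, 0 with only the groups compared in the fit, 11 with array weights and 0 when a log2 fold change of 1 or more was also asked for, and with 1 array left out it ran from 0 to 5. It was 0 without WT replicates 1 or 2, ob/ob replicates 2 or 3, or POKO replicate 2, where only the shared estimate of spread changes. The count of member genes became 2 when the probes of each gene were averaged. Array weights also gave 1 called member probe in POKO vs. WT, 6 in POKO vs. ob/ob, 2 in ob/ob vs. PPARγ2KO and 5 in leptin-deficient vs. lean islets, where the fold criterion left 1; the cause was not tested. With 1 array left out the counts ran from 0 to 1 in POKO vs. PPARγ2KO, from 0 to 2 in ob/ob vs. PPARγ2KO and from 0 to 4 in leptin-deficient vs. lean islets, and stayed at 0 in POKO vs. WT, PPARγ2KO vs. WT, POKO vs. ob/ob, PPARγ2-null vs. carrying islets and the interaction.

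Other pathway genes called in ob/ob vs. WT were 3 with only the groups compared and 42 with array weights, and 0 to 32 with 1 array left out. In leptin-deficient vs. lean islets they were 10 with normexp correction and 37 with array weights, and 2 to 27 with 1 array left out. All probes called in ob/ob vs. WT numbered 173 when WT replicate 2 was left out and 8460 when WT replicate 3 was. The 75th percentile shift moved the median of all probes from -0.08 to -0.19 and turned Igf2r in ob/ob vs. WT to -0.047. Array weights turned the dimmest Igf1r probe to -0.088. Leaving out arrays took that probe from -0.0699 (without ob/ob replicate 1) to 0.127 (without ob/ob replicate 2), with -0.017 without WT replicate 3. The direction of both Foxo1 probes and of both Igf1 probes in ob/ob vs. WT was kept under every alternative and left-out array. The brightest Foxo1 probe ran from 0.61 to 0.83 over the other alternatives and from 0.64 to 0.99 with 1 array left out, and the brightest Igf1 probe from -0.89 to -0.65 and from -0.86 to -0.60. The replicate number as a block, which is the slide, also gave 4 member probes in ob/ob vs. WT, with the calls of Igf1r and Foxo1 changed as the report gives. Arrays with the same number share a slide and a scan date, and their deviations from the genotype means correlated by -0.13 to 0.18.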

Other observations

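By Pearson r over the arrays among 11694 genes well above background on all 12, the genes most like each member were Tmem198 (0.97), Syt7 and Tmem163 for Foxo1, Copb2 (0.95), Il17re and Oxct1 for Igf1r, Chpf2 (0.98), Phlda2 and Angptl8 for Igf1, Shld1 (0.93), Cx3cl1 and Des for Igf2, and Usp4 (0.99), Usp5 and Shroom3 for Akt2. For Irs1 they were Enpp2 (0.98), Galnt14 and Cacna1d, for Pik3r1 Vamp2 (0.95), Papolg and Nrtn, for Insr Ring1 (0.93), Farp2 and Ppara, and for Igf2r, over 11 arrays, Mob3c (0.90), Snap29 and Vapa. With 12 arrays and this many genes high values arise easily, and they are given as a description.

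In leptin-deficient vs. lean islets 1 of 3 genes that encode IGF2 mRNA binding proteins was called lower, beside 5.37% of all genes. It was Igf2bp2, which fell by 0.42 (adjusted p = 0.0460, limma). Of 4 genes of glucose uptake 1 was called lower in ob/ob vs. WT, beside 7.13% of all genes. It was Tbc1d1, a regulator of glucose transporter traffic, which fell by 0.34 (adjusted p = 0.0378, limma). Its second probe gave -0.11 and was not called (adjusted p = 0.699, limma). Igf2bp2 and Tbc1d1 were named after their values were seen.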
